A study of Homo sapiens with 24 samples.

Results

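H929 cells kept with the vehicle DMSO for 24 h were compared with H929 cells kept with DMSO for 6 h, to describe what time in culture did to RNA levels without the compound the study tested. H929 is an established human multiple myeloma line, that is, a line of malignant plasma cells. The comparison rests on 6 of the 24 libraries of the series, 3 at 6 h and 3 at 24 h, chosen by their labels for line, treatment and time. The series also holds MM1S, another multiple myeloma line, and both lines treated with YKL-5-124, the agent of a study titled for CDK7 inhibition. MM1S with DMSO at 6 h and 24 h (3 libraries each) served as the line for comparison, and all 8 groups of 3 entered the fit that estimates the spread. The DMSO labels carry the dose of the compound, 83 nM for H929 and 98 nM for MM1S. All cells were grown in RPMI medium with serum in multiwell plates, and no medium change or untreated time point is named in the labels, so time with DMSO, time since plating and age of the medium cannot be told apart. The labels do not say whether the 3 libraries of a group came from separate cultures. The spread behind each p-value of the gene test is that among libraries within a group, taken over all 8 groups. That spread could be technical.

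Cultured cells take up cholesterol from serum and make the rest themselves. When membranes of the endoplasmic reticulum are short of sterol, the transcription factor SREBP2 is cut free and switches on the genes of sterol synthesis and uptake, and SREBP1 does the same for fatty acid synthesis. When oxygen is low, the factor HIF1 is no longer degraded and switches on genes for glycolysis, glucose uptake and the slowing of growth. In H929 with DMSO, 6 of 30 tested sterol genes and 3 of 19 fatty acid genes passed the limma test with higher RNA at 24 h than at 6 h, and 5 of 23 hypoxia-induced genes passed it with lower RNA, after rescaling of the libraries as described below. Of all 12418 genes tested, 0.644% passed as higher and 0.378% as lower on that scale. On the values as deposited, these counts were 1 of 30, 0 of 19 and 2 of 23.

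The stretches of DNA in front of some of these genes show the letters that these factors are known to bind. The sterol element bound by SREBP has a consensus of TCACNCCAC, and HIF1 binds around the cores ACGTG and GCGTG. Each was looked for on both strands of the 250 bases before the start of a gene (RefSeq, build GRCh38.p14), in 27305 promoters in all and in the 9051 that matched a tested gene by symbol. SREBF2, which encodes SREBP2 itself, carries 1 match to the sterol consensus, starting at -133 from the gene start (chr22:41832855-41833104, plus strand). The capitals mark the match, and the sequence is shown because SREBF2 was one of the genes that rose.

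SREBF2: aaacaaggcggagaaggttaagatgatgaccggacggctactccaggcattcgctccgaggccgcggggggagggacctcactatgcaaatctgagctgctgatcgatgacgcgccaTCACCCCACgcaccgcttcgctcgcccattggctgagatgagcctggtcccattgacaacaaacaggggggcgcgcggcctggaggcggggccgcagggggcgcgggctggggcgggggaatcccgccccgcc

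Of all promoters, 0.875% hold the sterol consensus, and so does 1 of the 23 matched promoters of the cholesterol list. The CCAAT box, bound by the factor NFY, stands in 16 of those 23 (69.6%) against 35.8% of the tested promoters. INSIG1, SCD, FADS1, HMGCS1 and MVK hold no match to TCACNCCAC in this window. Next, the 4 promoters below belong to hypoxia-induced or glycolytic genes that fell, and show how the HIF cores are spread. The capitals mark ACGTG and GCGTG on either strand. BHLHE40 is at chr3:4979187-4979436 (plus), PFKFB4 at chr3:48556804-48557053 (minus), DDIT4 at chr10:72273674-72273923 (plus) and LDHA at chr11:18394313-18394562 (plus).

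BHLHE40: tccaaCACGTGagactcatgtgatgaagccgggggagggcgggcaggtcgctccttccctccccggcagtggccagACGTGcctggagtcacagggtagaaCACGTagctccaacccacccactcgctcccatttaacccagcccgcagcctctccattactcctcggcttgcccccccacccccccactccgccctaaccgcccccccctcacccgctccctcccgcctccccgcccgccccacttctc
PFKFB4: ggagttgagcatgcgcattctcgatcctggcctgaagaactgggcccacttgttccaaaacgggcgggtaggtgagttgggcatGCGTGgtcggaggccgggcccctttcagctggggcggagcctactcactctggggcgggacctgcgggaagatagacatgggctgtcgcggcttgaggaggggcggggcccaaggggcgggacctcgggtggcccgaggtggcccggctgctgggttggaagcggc
DDIT4: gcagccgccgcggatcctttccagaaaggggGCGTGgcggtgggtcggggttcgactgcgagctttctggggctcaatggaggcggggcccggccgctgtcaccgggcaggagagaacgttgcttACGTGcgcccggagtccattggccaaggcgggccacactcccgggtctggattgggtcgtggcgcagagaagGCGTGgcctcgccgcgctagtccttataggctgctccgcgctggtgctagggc
LDHA: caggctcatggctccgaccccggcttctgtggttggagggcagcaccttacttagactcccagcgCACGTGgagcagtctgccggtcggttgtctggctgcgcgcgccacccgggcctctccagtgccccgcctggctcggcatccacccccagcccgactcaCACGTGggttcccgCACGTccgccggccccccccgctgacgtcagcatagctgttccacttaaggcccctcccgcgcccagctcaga

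BHLHE40 holds 4 matches, PFKFB4 1, DDIT4 3 and LDHA 5. A palindrome CACGTG holds ACGTG on both strands and counts as 2 overlapping matches, as it does in LDHA and BHLHE40. The core ACGTG stood in 11 of the 18 matched promoters of the hypoxia list (61.1%) and in 24.2% of the tested promoters. Either core stood in 14 of 18 (77.8%) and in 58.1% of the tested ones, since these 2 cores are short and common. The share with either core was as high in lists that rose, at 18 of 23 (78.3%) for the cholesterol and SREBP2 list and 13 of 17 (76.5%) for fatty acid synthesis, and it was 12 of 22 (54.5%) for glycolysis. For ACGTG alone the shares of these 3 lists were 26.1%, 23.5% and 36.4%. Among the genes lower at 24 h, 31 of 39 matched promoters held either core (79.5%), and among those higher, 34 of 59 (57.6%). A match describes letters only, not a bound site.

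The QuantSeq libraries are read from the 3′ end of each transcript, and the authors deposited 1 FPKM value per gene and library. FPKM is a read number scaled by library and gene length. Since the ERCC spike-in RNAs are nearly level across these files, a change of the RNA of a whole library stays in the deposited values. The test was therefore run as deposited, the main scale, and after median-of-ratios rescaling, called rescaled, which brings the typical gene to the same level in every library. Levels in FPKM are as deposited throughout, also beside a rescaled change. At 24 h the median gene's scale was 0.945-fold that at 6 h (1.87 ± 0.221 against 1.77 ± 0.157, SD, n = 3; exact permutation test, two-sided p = 0.7, smallest possible 0.1). Summed gene FPKM over summed ERCC FPKM was 0.852-fold (15.9 ± 1.55 to 13.5 ± 0.9; exact p = 0.2). Genes with at least 1 FPKM numbered 10350 ± 286 at 6 h and 10740 ± 142 at 24 h (exact p = 0.2). In bulk samples fewer cells of a type and less RNA per cell cannot be told apart. The sequencing depth is unknown, so no counting interval is given. One entry, SNHG25, took 10.1% to 17.2% of the summed FPKM at 6 h and 6.4% to 8.28% at 24 h.

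H929 kept the markers of a plasma cell at both times. All 10 plasma cell identity genes were expressed, with a summed level of 11180 to 14710 FPKM at 6 h and 9509 to 10840 at 24 h, and none was called by limma after rescaling (0 higher and 3 lower at an unadjusted p under 0.05). XBP1, a regulator of antibody secretion, stood at 3336 ± 531 and 3002 ± 294 FPKM, and the surface receptor FGFR3, which H929 expresses from its translocation, at 29.5 ± 1.53 and 23.8 ± 0.776. The list of H929 markers also holds WHSC1 (NSD2), at 81.3 ± 15.5 and 89.3 ± 6.85 FPKM, and CCND2, which was low at 2.11 ± 0.459 and 2.06 ± 0.269. None of these 3 was called by limma on either scale (1 higher and 0 lower at an unadjusted p under 0.05 after rescaling). Most markers of other cells were low and none was called on either scale (1 T cell and 1 epithelial or fibroblast gene were higher at an unadjusted p under 0.05 as deposited, and 0 were lower). The T cell genes CD3D, CD2, CD4 and CD8A stood at about 0.1 FPKM, the value of genes with no signal. CD3E stood at 1.98 and 1.71 FPKM and CD3G at 0.389 and 1.29. The T cell list summed to 2.41 to 4.34 at 6 h and 2.61 to 5.09 at 24 h (2 of 10 tested). Monocyte genes summed to 26 to 31.2 and 16.3 to 48.1 (3 of 10 tested, with CD14 at 0.107 and 0.144), epithelial and fibroblast genes to 20.3 to 34.5 and 27.7 to 30.5 (2 of 10, nearly all from KRT18, with EPCAM at 0.106 and 0.108), and mature B cell genes to 3.28 to 9.75 and 5.21 to 5.63 (3 of 10, with MS4A1 at 0.181 and 0.139). Nearly all of the monocyte sum came from S100A9 (15.8 ± 3.2 and 17.4 ± 14.6 FPKM) and CD68 (10.2 ± 1.2 and 10.7 ± 2.9). Most of the mature B cell sum came from CD37 (3.47 and 1.71) and FCRLA (1.86 and 1.77).

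Few genes were called between the times. Of 12418 genes tested with limma, 18 passed the adjusted p threshold of 0.05 as deposited (0.145%), 13 higher at 24 h (0.105%) and 5 lower (0.0403%). After rescaling 127 passed (1.02%), 80 higher (0.644%) and 47 lower (0.378%), and 13 of these were also among the 18. The other 114 were called on the rescaled scale alone. Of the 127, 16 were higher and 8 were lower by at least 1 on the log2 scale. The groups of 3 did not overlap in any of the 127 (rescaled). The same libraries gave the calls, so this is no separate support for them. The median log2 change over all genes was 0.01 as deposited and 0.06 rescaled, and 60.7% of genes were above 0. As deposited, the 18 became 9 without 6 h replicate 1 and 10 without 24 h replicate 1 or 3. The count of 127 depended more on single libraries: it was 355 without 6 h replicate 2, 37 without 6 h replicate 1 or 3, and 39, 49 and 43 without 24 h replicates 1, 2 and 3. Of the 127, 28 were called under each of these 6 omissions, among them INSIG1, SREBF2, SCD, FADS1, FASN, BHLHE40, PFKFB4, KDM3A, DDIT4, HES1, RGS1, RGS16 and CCL3. On simulated data with the size of this comparison, 80 of 100 changes of 1 log2 unit were recovered, with 6 false calls in the whole simulation. The simulation used the spread of the rescaled values with independent noise, and low genes were given no change. It therefore does not describe recovery as deposited or in low genes.

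Regulators of sterol synthesis rose. INSIG1, which holds the SREBP complex in the endoplasmic reticulum and is itself an SREBP target, stood at 20.6, 23.1 and 19.7 FPKM at 6 h and 40.2, 49.2 and 48 at 24 h. It rose after rescaling by 1.13 ± 0.15 (log2, SE; adjusted p = 0.000433) and was not called as deposited (1.08, adjusted p = 0.118). SREBF2 stood at 18.9, 27.1 and 20.5 FPKM at 6 h and at 41.4, 45.4 and 39.6 at 24 h. It rose by 0.96 ± 0.11 rescaled (adjusted p = 5.47e-05), and the deposited change was 0.91 (adjusted p = 0.325). In both genes the 24 h libraries lay above the 6 h libraries.

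Enzymes of the pathway followed. HMGCS1, which makes the precursor of mevalonate, stood at 15.5, 34.9 and 21.6 FPKM at 6 h and 49.9, 40.3 and 35.8 at 24 h, and rose by 0.90 ± 0.19 rescaled (adjusted p = 0.0271). MVK, the mevalonate kinase, went from 24.3 ± 3.64 to 37 ± 3.54 FPKM (0.66, adjusted p = 0.0298). HMGCS1 was called in 1 of the 6 omissions, and so was MVK, with adjusted p up to 0.166 and 0.145 without 6 h replicate 1. As deposited neither was called (adjusted p = 0.508 and 0.694). The squalene epoxidase SQLE stood at 12.2 ± 1.19 and 19.1 ± 2.15 (0.65, adjusted p = 0.061) and SREBF1 at 11.6 ± 1.99 and 13 ± 3.67 (0.19, adjusted p = 0.685).

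Of the 30 tested members of the cholesterol and SREBP2 list, 6 were higher rescaled and 0 lower (11 and 0 in limma at an unadjusted p under 0.05), against 0.644% and 0.378% of all genes. As deposited 1 member was higher and 0 were lower (6 and 0 unadjusted). The list's median was 0.23 rescaled, beside 0.06 for all genes, and 23 of 30 members were above 0. Leaving out single H929 libraries gave 3 to 6 members (3 without 6 h replicate 1, 6 h replicate 3, 24 h replicate 1 or 24 h replicate 3), and the fit of the 6 H929 DMSO libraries alone gave 3. MVK, like LRP8, DBI, FASN, FAM162A and MIR210HG below, were named after their values were seen, so that the calls of a group are described. SQLE and SREBF1 above, and IDH1, BNIP3L, VEGFA, P4HA1, IL6R and RPL23 below, were not picked by the naming rule either.

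**Figure D1:**
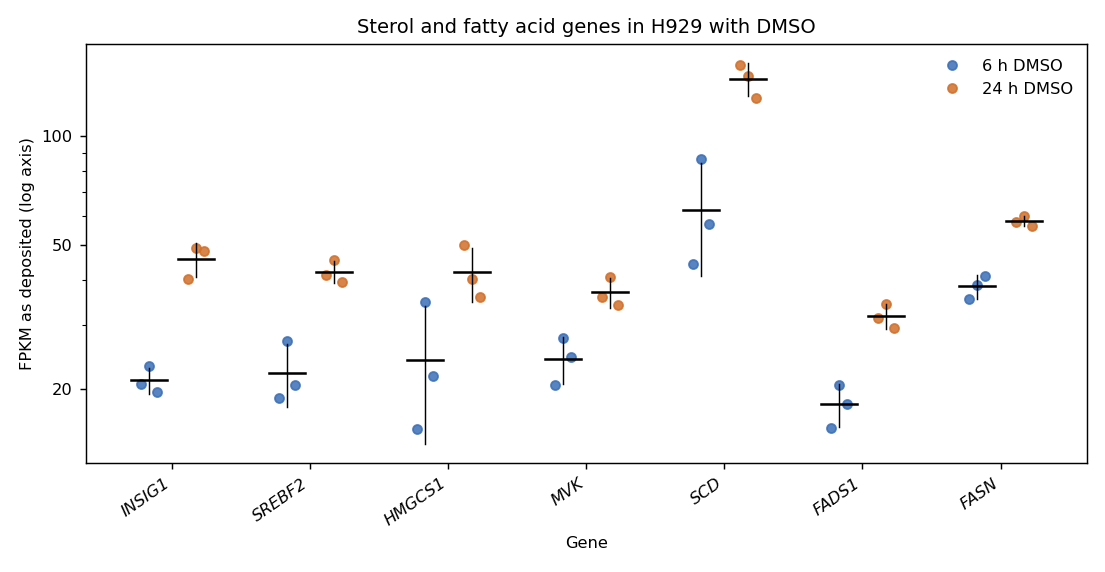
FPKM as deposited (log axis) of 7 sterol and fatty acid genes, picked among those called higher after rescaling, in each H929 DMSO library. There are 3 libraries at 6 h and 3 at 24 h. Black bars are the mean and vertical lines the SD of 3 libraries. The 24 h points of INSIG1, between 40.2 and 49.2 FPKM, lie above its 6 h points, between 19.7 and 23.1, and in each of the 7 genes the groups do not overlap.

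In fatty acid synthesis 3 enzymes rose as well. SCD, which puts the double bond into saturated fatty acids, stood at 44.2, 86.3 and 57 FPKM at 6 h and 158, 147 and 128 at 24 h, and rose by 1.31 ± 0.17 rescaled (adjusted p = 0.000324). All 24 h values were above the highest 6 h value. FADS1, another desaturase, went from 18.1 ± 2.46 to 31.8 ± 2.52 FPKM (0.83 rescaled, adjusted p = 0.00438) and FASN, the fatty acid synthase, from 38.5 ± 2.9 to 58.2 ± 1.78 (0.66, adjusted p = 0.00656). Of the 19 tested members, these 3 were higher rescaled and 0 lower (6 and 0 in limma at an unadjusted p under 0.05), none was called as deposited (adjusted p = 0.202, 0.307 and 0.689; 3 and 0 unadjusted), and the median was 0.25. The 3 were called in all 6 omissions, and 1 was called in the 6 H929 DMSO libraries alone. DBI, a binding protein for acyl-CoA, rose from 2391 ± 564 to 3898 ± 477 FPKM (0.81, adjusted p = 0.00111), LRP8, a receptor for lipoproteins and reelin, from 12.8 ± 4.24 to 21.6 ± 1.53 (0.79, adjusted p = 0.0111), and IDH1, an enzyme that yields NADPH, from 10.2 ± 0.747 to 17.6 ± 3.65 (0.74, adjusted p = 0.0207). These 3 changes are rescaled, and as deposited none of them was called (adjusted p = 0.584, 0.53 and 0.5). LRP8 was called in 2 of the 6 omissions and IDH1 in 1 (adjusted p up to 0.0992 without 6 h replicate 1, and 0.114 without 6 h replicate 3).

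Among hypoxia-induced genes 5 fell after rescaling, 2 of them also as deposited. BHLHE40, a transcriptional repressor, was at 19.6, 23.2 and 22.5 FPKM at 6 h and 3.8, 7.79 and 4.52 at 24 h. It fell by 1.88 ± 0.28 as deposited (adjusted p = 0.00278) and by 1.69 ± 0.23 rescaled (adjusted p = 0.000523). PFKFB4, which sets the activator of phosphofructokinase, was at 6.11, 7.56 and 5.91 FPKM and then at 1.8, 2.62 and 1.46. It fell by 1.36 ± 0.26 (adjusted p = 0.0228) and 1.10 ± 0.19 rescaled (adjusted p = 0.00601). In both genes all 24 h libraries were below all 6 h libraries, and the deposited call of PFKFB4 was kept in 1 of 6 omissions (adjusted p up to 0.211, without 24 h replicate 3).

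DDIT4, an inhibitor of mTORC1 that also answers to other stresses, followed. It stood at 858, 1270 and 1126 FPKM at 6 h and at 504, 425 and 372 at 24 h. The rescaled fall was 1.23 ± 0.11 (adjusted p = 1.57e-06), while the deposited change of -1.31 was not called (adjusted p = 0.11). KDM3A, a histone demethylase, stood at 14.1 ± 4.12 and 6.07 ± 1.64 FPKM as deposited and at 7.45 ± 1.41 and 3.41 ± 0.632 after rescaling, where it fell by 0.93 (adjusted p = 0.00549). FAM162A, a mitochondrial protein, stood at 522 ± 61.2 and 338 ± 49.6 FPKM as deposited and fell by 0.55 rescaled (adjusted p = 0.0228; called in 2 of 6 omissions, adjusted p up to 0.134 without 6 h replicate 3). MIR210HG, the host transcript of the hypoxia miRNA miR-210 and not a member of the list, was at 12.5, 16 and 15 FPKM at 6 h and 5.05, 7.6 and 4.98 at 24 h, and fell by 1.03 ± 0.15 rescaled (adjusted p = 0.000921). As deposited KDM3A, FAM162A and MIR210HG were not called (adjusted p = 0.103, 0.602 and 0.113).

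Of the 23 tested members of the hypoxia list, 0 were higher rescaled and these 5 were lower (0 and 10 in limma at an unadjusted p under 0.05), and 2 were lower as deposited. All 23 rescaled changes were below 0, with ERO1A and PPFIA4 at -0.01, and the median was -0.37 beside 0.06 for all genes. With single H929 libraries left out 18 to 23 were below 0 and 4 or 5 were called, and with the 6 H929 DMSO libraries alone 3 were called. Members that were not called include BNIP3L at 26.1 ± 3.22 and 16.7 ± 2.64 FPKM (-0.52, adjusted p = 0.0576), VEGFA, the vascular growth factor, at 18 ± 2.71 and 12.1 ± 1.73 (-0.43, adjusted p = 0.224), and P4HA1 at 56.8 ± 6.35 and 46.9 ± 11 (-0.21, adjusted p = 0.54). A shared sign also occurred in a list with no call: all 18 tested MHC genes were above 0 rescaled, with a median of 0.12.

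Among glycolytic genes LDHA fell beside PFKFB4. LDHA, which turns pyruvate into lactate, stood at 393, 595 and 557 FPKM at 6 h and 285, 318 and 262 at 24 h, and fell by 0.73 ± 0.17 rescaled (adjusted p = 0.0437), with no call as deposited (adjusted p = 0.53). The groups did not overlap, but the call was lost in each of the 6 omissions (adjusted p 0.0654 to 0.196). The glucose transporter SLC2A1 stood at 9.6 ± 1.41 and 5.39 ± 1.17 FPKM (-0.60, adjusted p = 0.0905) and PGK1 at 433 ± 73 and 299 ± 18.4 (-0.44, adjusted p = 0.0981). Of the 24 tested members, 2 were lower rescaled (PFKFB4 and LDHA) and 0 higher (9 and 1 in limma at an unadjusted p under 0.05), 18 were below 0, and the median was -0.27. That count was 3 without 6 h replicate 2 and 1 without any other single H929 library.

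**Figure D2:**
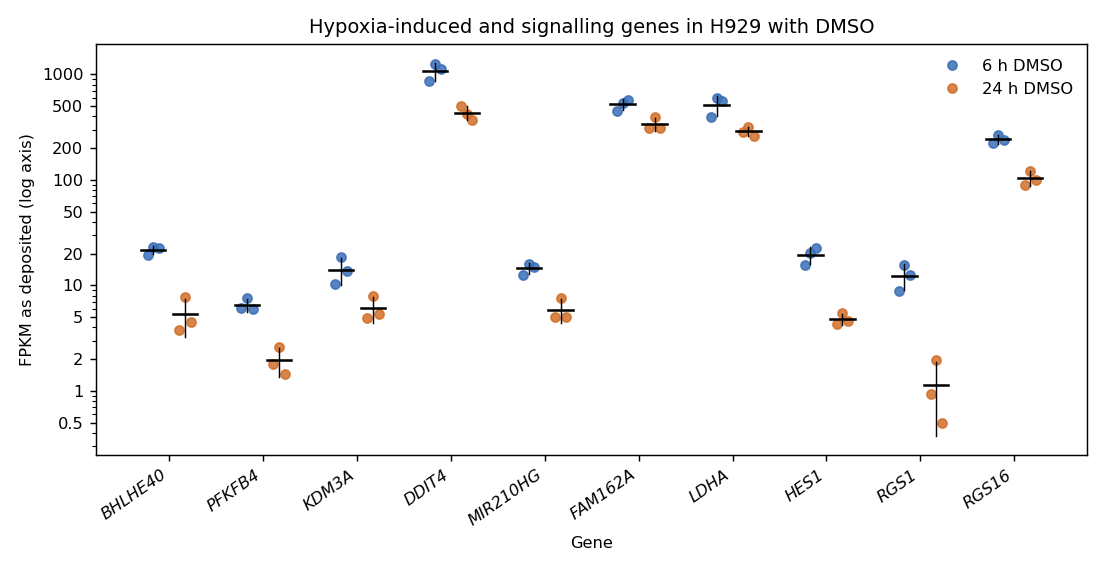
FPKM as deposited (log axis) of 10 genes that were lower at 24 h after rescaling, in each H929 DMSO library; black bars are the mean and vertical lines the SD of 3 libraries. In each of the 10 genes all 24 h libraries lie below all 6 h libraries, from RGS1, at 12.4 ± 3.4 and 1.13 ± 0.756 FPKM, to DDIT4.

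RGS1 and HES1 fell on both scales and RGS16 after rescaling. RGS1, which switches off G protein signals of chemokine receptors, was at 8.87, 15.7 and 12.7 FPKM at 6 h and at 0.932, 1.97 and 0.493 at 24 h. It fell by 2.68 ± 0.33 as deposited (adjusted p = 0.000395) and 2.23 ± 0.23 rescaled (adjusted p = 1.96e-05). HES1, a repressor induced by Notch signals, was at 15.8, 20.2 and 22.5 FPKM and then at 4.31, 5.42 and 4.57, and fell by 1.82 ± 0.26 (adjusted p = 0.00216) and 1.62 ± 0.14 rescaled (adjusted p = 1.57e-06). Both were called in all 6 omissions on both scales. RGS16, of the same family as RGS1, was at 222, 267 and 239 FPKM and then at 89.1, 122 and 99.9, and fell by 1.14 ± 0.18 rescaled (adjusted p = 0.00367; as deposited 0.11).

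CCL3, a chemokine made by myeloma cells, went the other way. Its 6 h values were 299, 343 and 371 FPKM and its 24 h values 648, 630 and 513, a rise of 0.90 ± 0.09 rescaled (adjusted p = 1.43e-05) that was not called as deposited (0.82, adjusted p = 0.41). It was the 1 member called among 15 chemokines and receptors, against 0.644% of all genes called higher after rescaling. IL6R, the receptor for the myeloma growth factor IL-6, stood at 188 ± 48 and 249 ± 41.6 FPKM and rose by 0.51 rescaled (adjusted p = 0.038). As deposited its groups overlapped and it was not called (adjusted p = 0.83). After rescaling it was called in 1 of 6 omissions (adjusted p up to 0.211, without 6 h replicate 3).

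Genes called as deposited that rose were mostly low at 6 h. ANK1, an ankyrin of the membrane skeleton, stood at 1.86, 1.85 and 1.78 FPKM and then at 7.16, 7.36 and 8.33, a rise of 1.60 ± 0.24 (adjusted p = 0.00278) that held in all 6 omissions on both scales. NKX2-5, a homeobox factor known from the heart, went from 2.39 ± 0.996 to 9.23 ± 1.83 FPKM (1.62, adjusted p = 0.00989) and PPP4R2, a subunit of protein phosphatase 4, from 2.17 ± 0.339 to 9.72 ± 2.04 (1.75, adjusted p = 0.0117). Each of these last 2 was called in 3 of 6 omissions as deposited (adjusted p up to 0.0886 without 24 h replicate 3 and 0.0897 without 24 h replicate 1). PRRT2 went from 0.451 ± 0.1 to 3.07 ± 0.144 FPKM (1.49, adjusted p = 0.00389), and MGAT3-AS1 from 0.525 ± 0.693 to 5.87 ± 0.734 (2.26, adjusted p = 0.00278). MGAT3-AS1 and GPR158-AS1 (0.431 ± 0.209 to 2.3 ± 0.554, adjusted p = 0.0228) are antisense entries, and since the counting strand is not given in the sources used here their reads and those of an overlapping partner cannot be told apart. SERF1B (0.482 ± 0.282 and 2.19 ± 0.666 FPKM, adjusted p = 0.0228) has a near-identical copy, so its value is uncertain. GPR158-AS1 was called in 1 and SERF1B in 2 of 6 omissions as deposited (adjusted p up to 0.211 and 0.184, without 24 h replicate 3). MGAT3-AS1 was called in all 6. Other calls on this scale were UTS2, 2 LOC entries and 3 entries of short RNAs, for which a read weighs more in FPKM than for a long gene. MIR4419A was listed at 0.122, 0.143 and 0.15 FPKM at 6 h and 474, 726 and 362 at 24 h, and SNORA74A at 87.5, 98.6 and 78 and then at 24.2, 0.15 and 7.04. SCARNA23 was listed at 22.9, 0.107 and 0.121 FPKM at 6 h and 51.3, 28.4 and 87.9 at 24 h, so it was near the floor in 2 of the 3 libraries at 6 h. MIR4419A was called in none of the 6 omissions (adjusted p 0.109 to 0.151) and SNORA74A in 1 (up to 0.104, without 24 h replicate 2).

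Ribosomal protein genes and nuclear genes of oxidative phosphorylation lay mostly below 0 after rescaling, and 3 of them were called, all lower. The background over all genes tested was 0.378% called lower and 5.27% lower at an unadjusted p under 0.05. Of 50 cytosolic ribosomal protein genes, 2 were lower and 0 higher (limma; 14 and 1 at an unadjusted p under 0.05), 41 were below 0 and the median was -0.16. RPL32 stood at 2627 ± 310 and 1811 ± 138 FPKM (-0.45, adjusted p = 0.0137), and RPL23 at 11352 ± 1143 and 8446 ± 841 (-0.34, adjusted p = 0.0486). Ribosomal protein genes have many near-identical pseudogene copies, so their values are uncertain. Of 37 nuclear genes of oxidative phosphorylation 1 was lower and 0 higher (10 and 0 unadjusted), 30 were below 0 and the median was -0.21. That gene was ATP5B, the beta subunit of ATP synthase, at 662, 751 and 859 FPKM and then at 480, 479 and 438. It fell by 0.61 ± 0.10 rescaled (adjusted p = 0.00456), and in all 6 omissions. RPL32 and RPL23 were each called in 1 omission, with adjusted p up to 0.113 and 0.243, both without 6 h replicate 3. The ribosomal count was 9 without 6 h replicate 2 and 0 without any other single H929 library. It was 4 without MM1S 24 h replicate 1, 2 without MM1S 6 h replicate 3 and 1 without any other single MM1S DMSO library, since these share the estimate of the spread. The count for oxidative phosphorylation was 4 without 6 h replicate 2 and 2 without 6 h replicate 1. As deposited no gene of these lists was called (2 and 2 lower at an unadjusted p under 0.05).

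Of the cell cycle genes 4 were called after rescaling, all lower, against 0.378% of all genes. Of 45 genes of replication and the G1/S step 1 was lower, the helicase subunit MCM6 at 39.6 ± 4.08 and 25.1 ± 2.55 FPKM (-0.54, adjusted p = 0.0257). Of 45 genes of mitosis 3 were lower, CKS2, BIRC5 and PRC1, with CKS2 at 207 ± 30.9 and 106 ± 14.9 (-0.87, adjusted p = 0.0196). At an unadjusted p under 0.05, 6 and 7 were lower and 3 and 3 higher. Medians were 0.06 and -0.06. As deposited none of the 4 was called (adjusted p = 0.518 for MCM6, 0.234 for CKS2, 0.705 for BIRC5 and 0.686 for PRC1). Each of these 4 was called in 1 or 2 of the 6 omissions. Omitting 6 h replicate 1 ended the calls of MCM6 (adjusted p = 0.163), CKS2 (0.137) and BIRC5 (0.161), and omitting 6 h replicate 3 that of PRC1 (0.212). The cyclin-dependent kinase inhibitor CDKN1A stood at 83.2 ± 11.8 and 86.7 ± 15.5 FPKM (0.13, adjusted p = 0.758), and none of 27 p53 target genes was called by limma (5 higher and 2 lower at an unadjusted p under 0.05, median 0.19). CDK7, the kinase the compound is directed at, stood at 9.47 ± 0.692 and 7.33 ± 2.3 FPKM (-0.27, adjusted p = 0.76).

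Of 26 regulators of the plasma cell and of myeloma 1 was higher after rescaling, against 0.644% of all genes. This was the zinc finger factor KLF6 at 19.2 ± 2.71 and 27 ± 3.55 FPKM (0.53, adjusted p = 0.00776; as deposited 0.827), which was called in 4 of 6 omissions (adjusted p up to 0.0543, without 6 h replicate 3). IRF4, on which myeloma cells depend, stood at 64.5, 79 and 83.1 FPKM at 6 h and 63, 85.2 and 63.6 at 24 h (-0.02 rescaled, adjusted p = 0.984), and PRDM1 at 39.5 ± 2.98 and 36.5 ± 5.17 (-0.04, adjusted p = 0.957). The groups overlapped in both. The survival gene MCL1 stood at 720 ± 91.4 and 621 ± 81.3 FPKM (-0.13, adjusted p = 0.502), and MYC was at 0.416 ± 0.25 and 0.517 ± 0.197 FPKM, near the floor. TXNIP, a sensor of glucose, was at 42.3 ± 5.64 and 53.5 ± 10.4 (0.40, adjusted p = 0.169). None of 35 genes of the unfolded protein response was called by limma after rescaling (6 higher and 3 lower at an unadjusted p under 0.05), nor any of 18 MHC genes (1 and 0), 29 interferon-stimulated genes (2 and 0) or 33 lysosome and autophagy genes (2 and 1). Among all tested genes, 1178 were higher and 655 lower at that unadjusted threshold.

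**Figure D3:**
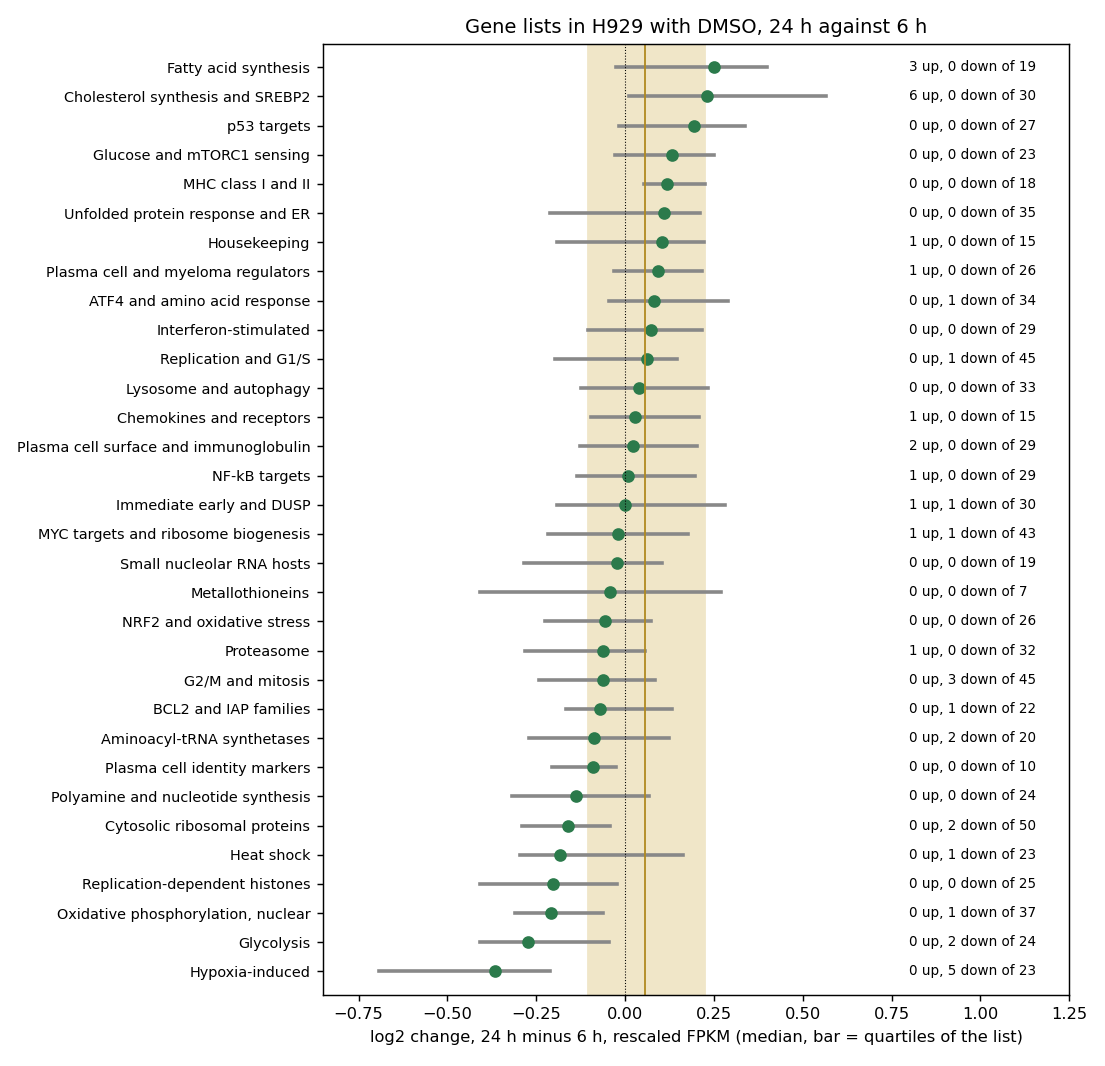
Median log2 change (24 h minus 6 h, rescaled FPKM; green points) and quartiles (grey bars) of the 32 gene lists with at least 5 tested members in H929 with DMSO; the numbers at the right are members called higher and lower. The band spans the quartiles of all 12418 genes and the gold line is their median of 0.06. The hypoxia list lies lowest at -0.37 and the fatty acid and cholesterol lists highest at 0.25 and 0.23.

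The time change of H929 was set beside that of MM1S with DMSO, which shares no library with it. In MM1S the whole deposited scale dropped with time: 32 genes were higher and 6950 lower (0.258% and 56%), with a median of -0.74. The difference between the lines as deposited (29.7% of genes called, 3668 higher in H929 and 20 lower) therefore carries the scale of the libraries, and was 17 genes without MM1S 24 h replicate 1, whose spike-ins were uneven. It was also 17 without H929 24 h replicate 2, 43 without MM1S 24 h replicate 3, 65 without H929 6 h replicate 1, 97 without MM1S 6 h replicate 1, 705 without MM1S 6 h replicate 2, 2414 without H929 6 h replicate 3, 2260 without H929 24 h replicate 1 and 6976 without MM1S 24 h replicate 2. The rescaled difference was called for 82 genes (0.66%), 14 higher (0.113%) and 68 lower (0.548%) in H929. That count was 53, 54 and 47 without H929 6 h replicate 3, 24 h replicate 2 and 24 h replicate 3.

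The change of 10 of the 23 hypoxia genes differed between the lines. After rescaling, 16 of the 23 were higher and 0 lower at 24 h in MM1S (10.3% and 5.39% of all genes), with a median of 0.70, and all 10 differences were lower in H929. PFKFB4 changed by -1.10 in H929 and by 2.65 in MM1S, a difference of -3.75 ± 0.27 (adjusted p = 6.03e-08). DDIT4 changed by -1.23 and 1.66 (difference -2.88 ± 0.15, adjusted p = 4.98e-10), MIR210HG by -1.03 and 2.35 (-3.38 ± 0.21, adjusted p = 3.98e-09) and KDM3A by -0.93 and 1.01 (-1.95 ± 0.23, adjusted p = 7.6e-05). P4HA1, a collagen hydroxylase, was not called in H929 (-0.21) and rose by 2.25 in MM1S (difference -2.46 ± 0.20, adjusted p = 1.97e-07). The count of 10 was 9 to 11 when single DMSO libraries of either line were left out. Among 24 glycolytic genes the difference was called for 8, all lower in H929. That count depended on single libraries: it was 2 without H929 24 h replicate 3, 3 without H929 6 h replicate 2 or 3 or MM1S 6 h replicate 2, 4 without H929 6 h replicate 1, MM1S 6 h replicate 3 or MM1S 24 h replicate 2, and 5 without H929 24 h replicate 1 or 2 or MM1S 6 h replicate 1.

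Among sterol genes the difference was called for 2 of 30, among them INSIG1 (1.13 in H929 and -0.03 in MM1S; 1.16 ± 0.21, adjusted p = 0.0074). The count was also 2 under each alternative tried. SREBF2 rose in both lines (0.96 and 0.39; difference 0.57 ± 0.15, adjusted p = 0.113), and so did SCD, by 1.31 and 1.26 (difference 0.05 ± 0.24, adjusted p = 0.956). CCL3 rose by 0.90 in H929 and fell by 0.77 in MM1S (difference 1.67 ± 0.13, adjusted p = 1.33e-07). RGS1 changed by -2.23 and 0.36 (difference -2.60 ± 0.33, adjusted p = 0.000214), and HES1 by -1.62 and -0.34 (-1.28 ± 0.20, adjusted p = 0.00129). Of the 127 genes called in H929, 63 were also called in MM1S in the same direction and 7 in the opposite one, and the difference was called for 16. ANK1 (1.42 and 1.33), NKX2-5 (1.47 and 1.57), PRRT2 (1.14 and 1.48) and MALAT1 (1.45 and 1.69) were among those that rose in both lines. After rescaling, the H929 call held in 6 of 6 omissions of an H929 library for ANK1, 4 for NKX2-5 and 3 for MALAT1. For PRRT2 it held in 0 (adjusted p 0.0567 to 0.15).

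**Figure D4:**
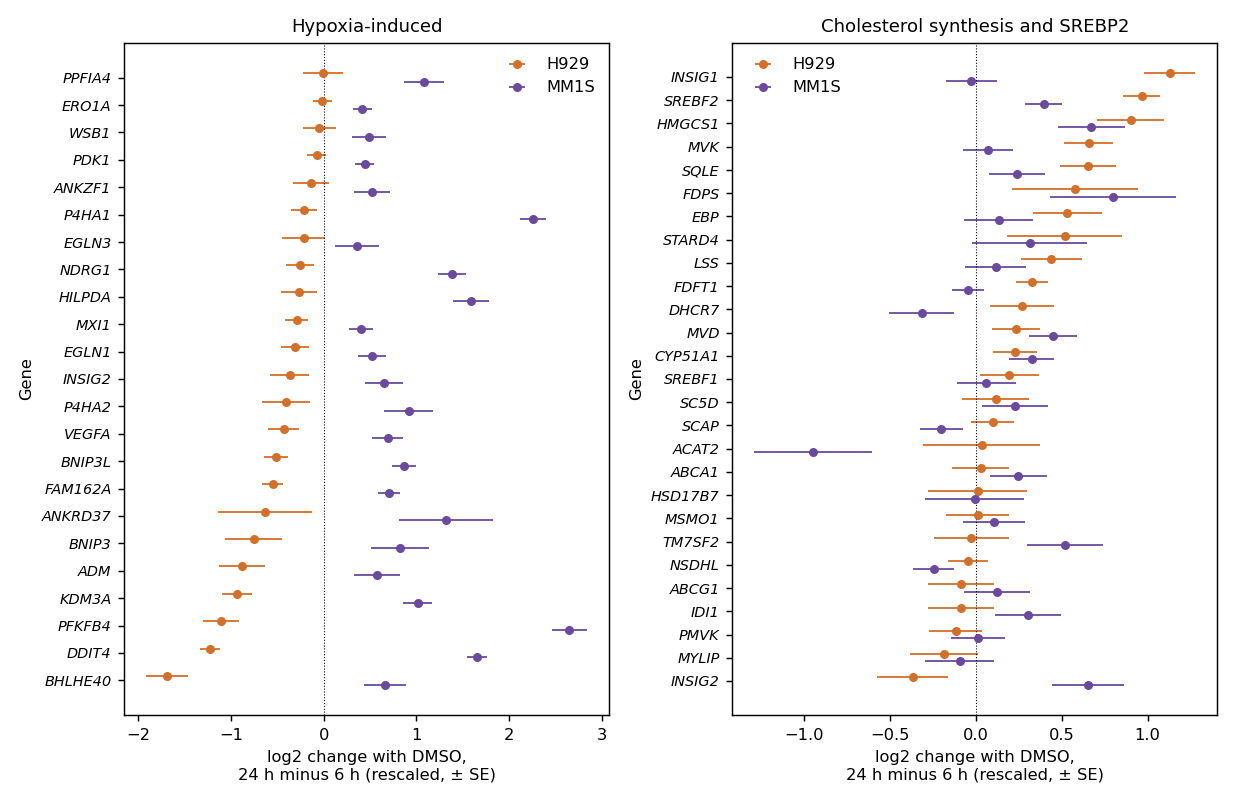
Log2 change with DMSO, 24 h minus 6 h, on rescaled FPKM (points, with SE bars) in H929 (orange) and MM1S (purple) for the 23 tested hypoxia-induced genes (left) and the cholesterol and SREBP2 genes reported here (right), ordered by the H929 value. All 23 hypoxia genes lie below 0 in H929 and above 0 in MM1S, while the sterol genes lie mostly above 0 in both; INSIG2 is a member of both lists.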

How the data were processed

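RNA was measured by 3′ end sequencing (QuantSeq) in 24 libraries. Per the submitters' processing notes, HISAT2 and Cuffnorm were used with the build hg19, with no versions given. Each library has 1 table of FPKM values, deposited by the authors, with 26249 genes and 92 ERCC spike-ins among its 26341 entries. Dividing by gene length is not suited to 3′ end reads. It drops out of a plain ratio between groups, but not fully of a test that adds 1 FPKM and filters at 1 FPKM. No value was 0, and genes without signal hold about 0.1 FPKM. The 50 ERCC transcripts averaging at least 10 FPKM were almost level, so whole-library changes, or unequal input, stay in the values. How that scaling was done is not given in the sources used here.

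The gene test was limma-trend (two-sided; limma 3.58.1, R 4.3.3) on log2(FPKM + 1), which understates changes of low genes. One fit held 24 libraries with 8 group means and 12418 genes, those reaching 1 FPKM in 3 or more libraries. Adjusted p-values are Benjamini-Hochberg values over all tested genes, threshold 0.05. Rescaling divided FPKM by median-of-ratios factors over 6014 genes whose geometric mean reached 5 FPKM. The test was checked on simulated data.

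The comparison, the 37 lists of genes and the naming rule were chosen with earlier results of these data known. The rule took up to 12 rises and 12 falls per scale by size among called genes with no overlap and a higher mean of at least 2 FPKM, 3 members per list, the 3 largest differences between lines of each sign, and fixed genes. Short RNA classes, LOC and LINC entries were left out. Alternatives covered scaling, filters, pseudocount, fit design and left-out libraries. No column was left unused (0). Some members of the cholesterol list are counted but not reported here by name. Libraries outside the 4 DMSO groups entered the estimate of the spread, the filter and the rescaling reference, and no comparison.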

Additional observations from a re-analysis of the deposited data

Results flagged for a closer look

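The difference of the 24 h against 6 h change between H929 and MM1S, both with DMSO, was called by limma for 3688 genes as deposited and for 82 after rescaling. The deposited scale of the MM1S libraries fell with time, and its part in single genes was not tested.

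Of 123 named genes, 12 differed between the lines on both scales with the same sign. The differences reported here are H929 minus MM1S on the rescaled log2 scale. Lower in H929 were the hypoxia-induced genes PFKFB4 (-3.75), DDIT4 (-2.88), BHLHE40 (-2.35) and KDM3A (-1.95), the CDK inhibitor CDKN1C (-2.79) and RGS1 (-2.60). CDKN1C stood at 3.5 ± 1.33 and 2.69 ± 0.882 FPKM in H929 (rescaled change -0.16, adjusted p = 0.815), against a rise of 2.63 in MM1S.

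Higher in H929 were CCL3 (1.67), INSIG1 (1.16), the chaperones DNAJB1 (1.46) and HSPA1B (1.27), and the tRNA methyltransferase subunit TRMT61B (1.48). DNAJB1 stood at 207 ± 55.7 and 194 ± 37.5 FPKM in H929 (0.01, adjusted p = 0.999) and fell by 1.45 in MM1S. HSPA1B fell in both lines after rescaling, by 0.62 in H929 (adjusted p = 0.0372) and by 1.89 in MM1S. The H929 fall was called in 1 of 6 omissions of an H929 library (adjusted p up to 0.2, without 6 h replicate 1) and not as deposited (adjusted p = 0.392). The gene has a near-identical copy, so its value is uncertain. TRMT61B was low, at 2.92 ± 1.02 and 3.28 ± 1.29 FPKM in H929 (0.13, adjusted p = 0.879), and fell by 1.35 in MM1S.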

How the results depend on the processing

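As deposited, 18 genes were called; the count was 6 in a fit of the 6 H929 DMSO libraries alone, 127 after median-of-ratios rescaling and 313 with summed FPKM equalised (290 higher, 23 lower), 9 to 16 with 1 H929 library left out, and 12 to 21 otherwise. After rescaling, 127 became 74 with no filter, 197 at 5 FPKM or more, 26 in the 6 libraries alone, 239 without the 2 libraries with uneven spike-ins (chosen after seeing the data) and 37 to 355 with 1 library left out. The difference between lines (3688 as deposited) was 1029 with no filter, 17 without the uneven libraries, 82 rescaled, 66 with equalised sums, and 17 to 6976 with 1 library left out. The rescaled difference (82) was 47 to 99. The scale of the median gene ranged from 0.882 to 0.989 and the summed ratio from 0.807 to 0.886. The causes were not tested.

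The replicate block gave 18 genes as deposited, 55 rescaled (38 higher, 17 lower), 2733 for the difference and 61 for the rescaled difference. Same-numbered libraries of the 2 times correlated at -0.206, -0.0876 and -0.0238 as deposited, with no sign of pairing by number. These are deviations from means of only 3 libraries, so they cannot exclude shared cultures. For the named genes, 148 of the rescaled values under an alternative lost the call, 27 gained it and 1401 kept direction and side. Depth is unknown, so the precision of low genes cannot be given.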

Other observations

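Other genes called after rescaling alone include 5 that are in none of the lists and are given singly. YTHDC1 and DDX3X are named here after their values were seen. Levels are FPKM as deposited and changes are rescaled. YTHDC1, the nuclear reader of m6A, rose from 16.4 ± 0.839 to 29.2 ± 1.9 FPKM (0.85, adjusted p = 0.00111, limma, n = 3) and CEBPZ, a factor of ribosome biogenesis, from 8.41 ± 3.47 to 19.1 ± 1.91 (1.17, adjusted p = 0.00601). RBMX, an RNA-binding protein encoded on the X chromosome, fell from 649 ± 85.5 to 331 ± 21.7 (-0.88, adjusted p = 0.0469) and the helicase gene DDX3X from 65.1 ± 2.26 to 39.5 ± 4.43 (-0.62, adjusted p = 0.0189). The nuclear RNA MALAT1 rose from 47.3 ± 18 to 120 ± 7.68 (1.45, adjusted p = 0.00921). YTHDC1 was called in 6 of 6 omissions of an H929 library, CEBPZ in 5, MALAT1 in 3, and RBMX and DDX3X in 1 each, with adjusted p up to 0.0557, 0.0734, 0.249 and 0.145 for the last 4, all without 6 h replicate 1. As deposited none of the 5 was called (adjusted p = 0.41, 0.189, 0.333, 0.457 and 0.11 in the order given).

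The aminoacyl-tRNA synthetases KARS and DARS were the 2 called among 20 after rescaling, both lower, against 0.378% of all genes called lower. Of the 20, 9 were above 0 and 11 below, the median was -0.09, and 0 were higher and 5 lower in limma at an unadjusted p under 0.05. KARS stood at 194 ± 14.7 and 119 ± 19.3 FPKM (-0.63, adjusted p = 0.0225, limma, n = 3) and DARS at 75 ± 14.5 and 48.5 ± 3.33 (-0.52, adjusted p = 0.0306), with no call as deposited (adjusted p = 0.5 and 0.638). KARS was called in 2 of 6 omissions of a library and DARS in 1 (adjusted p up to 0.157 without 6 h replicate 1, and 0.213 without 6 h replicate 3).

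The share of genes above 0 differed with their level in H929. Of 3164 genes with a mean under 2 FPKM, 71.6% were above 0 after rescaling, and of 2498 genes with a mean of at least 50 FPKM, 46.6%. Of 172 LINC entries 76.7% were above 0. The filter counted all 24 libraries, so low groups can include genes near the floor in H929. For such genes small differences of the rescaled floor between libraries can set the sign, and their part in these shares was not tested. Among 132 entries of small nucleolar RNAs, 66 were above 0 and 66 below.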
